A study of Mus musculus with 20 samples.

Results

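H3K4me3 at gene promoters was compared between germline stem cells that had lost Kmt2b and their controls, in 4 of the 20 libraries of a series on histone marks and RNA. The cells were cultured mouse germline stem cells, which stand in vitro for the stem cells of spermatogenesis and were kept on a layer of fibroblast feeders. All of them carried floxed Kmt2b alleles (F/F) and Rosa26-CreERT2, a Cre recombinase that acts once tamoxifen is given and is expressed from a locus active in most cell types. Knockout cells (FC/FC) had received 4-hydroxytamoxifen (4-OHT) at 1 μM and control cells ethanol, and both were harvested 6 days after treatment. Each group had 2 libraries, from duplicate cell lines per the series text, so that loss of Kmt2b, exposure to 4-OHT and activity of the recombinase cannot be told apart. The deposited table gives log2 RPM (read counts scaled by library size) for 1 window per gene, whose size and place are not stated. A window was kept where its mean over the 4 libraries was at least 1 RPM, which left 15624 of 25965 windows. The windows of Pmel (mean 1.0012 RPM) and Prelp (1.0014 RPM) stood just inside this limit, and those of Nr2f2 (0.99866 RPM) and Abi3 (0.99889 RPM) just outside.

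H3K4me3, trimethylation of lysine 4 on histone H3, marks the start sites of active genes and of genes held ready for activation. Kmt2b (also MLL2) is one of several enzymes of the MLL and SET1 families that deposit it, each in a complex with shared subunits such as Wdr5. At many silent developmental genes in stem and germ cells the mark coexists with H3K27me3, the mark of Polycomb repression, a state known as bivalent.

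The control libraries held 10360152 and 18035122 mapped reads and the knockout libraries 3830045 (replicate 1) and 16578722 (replicate 2). In that order 25.6%, 29.0%, 20.7% and 27.2% of the reads lay in the gene windows. A single read was worth 0.261 RPM in knockout replicate 1, and 145 of the kept windows had no read there, against 0 in each other library. Such windows stand in the table at 0.9 of a read and are given here as 0 RPM, while the fits used the deposited value. Over the kept windows the log2 values of the replicates correlated at 0.978 in control and 0.935 in knockout (Pearson's r across windows, which are not independent). The SD of the difference between replicates was 0.225 in control and 0.563 in knockout. The main counts are therefore given with all 4 libraries and again without knockout replicate 1, and a window called lower both times is described as lower in both fits. In the second fit the spread comes from the control pair alone. Reads were scaled to the mapped reads of each library, so every value is a share of the library and not an amount of the mark per cell.

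The promoters of the windows described here varied widely in their content of CpG. The 250 bases before the start site are shown for 3 of the largest decreases (Hapln1, Kcnh8, Tomm20l), for the most strongly marked window that was lower in both fits (Ism2), and for a ribosomal protein gene with no call (Rpl26), since CpG-rich promoters are the usual sites of H3K4me3. They are RefSeq sequences of GRCm38.p6 (mm10), read 5′ to 3′ on the gene's strand, with each CG pair in capitals.
Hapln1, chr13:89540386-89540635, plus strand: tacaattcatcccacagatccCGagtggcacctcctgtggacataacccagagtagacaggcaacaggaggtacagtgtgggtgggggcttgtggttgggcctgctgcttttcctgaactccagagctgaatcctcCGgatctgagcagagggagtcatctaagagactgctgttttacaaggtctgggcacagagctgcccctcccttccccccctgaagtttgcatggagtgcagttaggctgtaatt
Kcnh8, chr17:52602459-52602708, plus strand: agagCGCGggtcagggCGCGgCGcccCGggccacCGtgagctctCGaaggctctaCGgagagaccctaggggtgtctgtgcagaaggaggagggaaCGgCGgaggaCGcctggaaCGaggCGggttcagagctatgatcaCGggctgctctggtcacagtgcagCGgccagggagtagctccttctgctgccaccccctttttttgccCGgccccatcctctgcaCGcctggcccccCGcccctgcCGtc
Tomm20l, chr12:71111178-71111427, plus strand: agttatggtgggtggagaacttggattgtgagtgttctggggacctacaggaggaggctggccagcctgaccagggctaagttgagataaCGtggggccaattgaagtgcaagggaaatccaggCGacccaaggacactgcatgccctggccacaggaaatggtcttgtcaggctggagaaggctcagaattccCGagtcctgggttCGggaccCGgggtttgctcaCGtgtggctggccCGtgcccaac
Ism2, chr12:87299706-87299955, minus strand: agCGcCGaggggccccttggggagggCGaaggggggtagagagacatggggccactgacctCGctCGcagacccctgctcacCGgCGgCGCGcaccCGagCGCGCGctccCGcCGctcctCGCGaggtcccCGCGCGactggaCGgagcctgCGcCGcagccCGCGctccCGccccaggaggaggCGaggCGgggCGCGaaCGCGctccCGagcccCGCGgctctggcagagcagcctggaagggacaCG
Rpl26, chr11:68901316-68901565, plus strand: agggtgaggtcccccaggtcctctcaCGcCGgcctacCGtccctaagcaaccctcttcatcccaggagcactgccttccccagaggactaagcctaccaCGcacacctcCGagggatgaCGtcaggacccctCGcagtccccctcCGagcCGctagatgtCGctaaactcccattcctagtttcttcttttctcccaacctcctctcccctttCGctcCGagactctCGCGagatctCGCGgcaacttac
The Hapln1 stretch held 2 CG pairs and that of Ism2 36, while Kcnh8 had 20, Tomm20l 7 and Rpl26 16. Of all 32841 promoters in the RefSeq table, 81.2% held at least as many as Hapln1 and 2.58% at least as many as Ism2. Only 10876 of the 15624 windows (69.6%) could be matched to an entry within 500 bp, under the 80% required, so CpG content was not compared between sets of windows. Where these stretches lie relative to the deposited windows is not stated.

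Kmt2b itself, listed under the older symbol Wbp7 (mm10 chromosome 7, 30568858 to 30588726), gave 25.6 and 26.4 RPM of H3K4me3 in control and 24.8 and 34.3 RPM in knockout. The groups overlapped, and the log2 change of 0.16 (SE 0.22) did not pass limma's test (adjusted p = 0.765). Its RNA was 142 and 150 RPM in control and 131 and 185 RPM in knockout. The deletion of part of the gene cannot be read from such sums, and these values do not check the genotypes in the labels.

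The mark was lower in knockout cells at 1546 of 15624 windows (9.90%) and higher at 8 (0.0512%), by limma at an adjusted p under 0.05. Without knockout replicate 1, 894 windows (5.72%) were lower and 72 (0.461%) higher, and 635 windows (4.06%) were lower in both fits. Those 635 kept a median of 22.6% of their control mean in knockout replicate 1 and 38.0% in knockout replicate 2. In the deeper replicate 2 they kept between 6.92% and 64.5%, with 3 windows under 10% and 103 over 50%. Without control replicate 1 or without control replicate 2, 0 windows were called lower by limma (689 and 213 at an unadjusted p under 0.05). In those fits the spread comes from the knockout pair alone. Without knockout replicate 2 there were 6889.

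The median log2 change over all 15624 was -0.26, or -0.03 without knockout replicate 1 and -0.50 without knockout replicate 2. Both knockout values lay below both control values at 6687 windows (42.8%) and above them at 1403 (8.98%). Scaling to the median of each library moved the median to 0.03 and gave 1430 lower and 642 higher windows, and quantile normalization moved it to 0.01 with 595 lower and 414 higher. Of the 911 windows lower only with 4 libraries, the median log2 change was -1.52, and -0.82 without the shallow replicate. A further 259 were lower only without it, where their median was -1.57, against -1.39 for the 635.

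**Figure D1:**
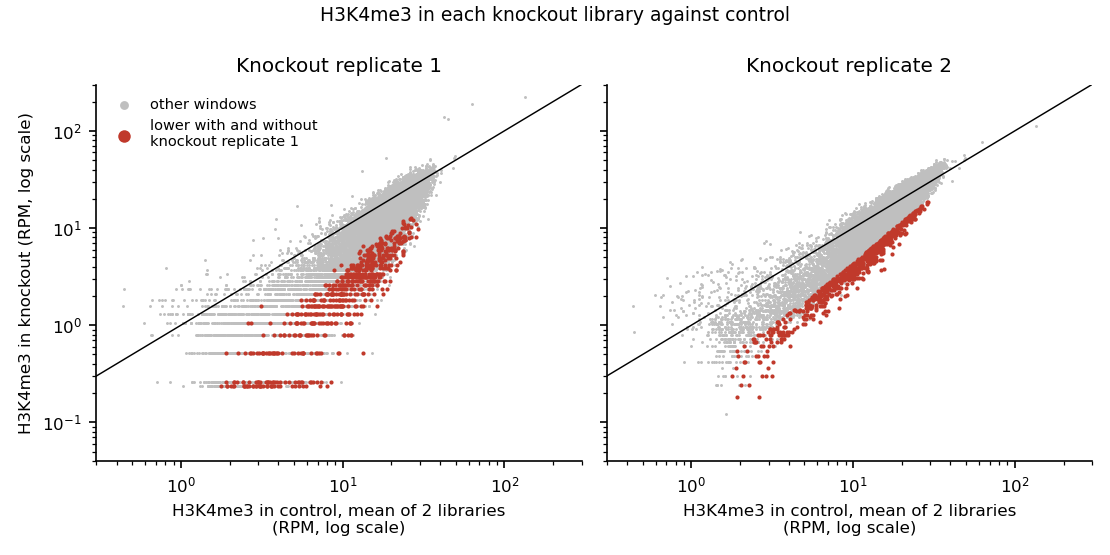
H3K4me3 of each kept window in knockout replicate 1 (left) and replicate 2 (right), in RPM on a log axis, against the mean of the 2 control libraries, with the line of equality. Red points are the 635 windows lower in both fits and windows with no read are drawn at 0.9 of a read. Windows lower in only 1 fit are grey and share the range of the red points. In knockout replicate 2 the 259 lower only without replicate 1 kept a median of 32.7% of control, against 38.0% for the red points. On the left, horizontal rows are single read counts.

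The 10 largest decreases were at genes of varied function, whose mean RNA in control cells lay between 0 and 1.07 RPM. Hapln1, which encodes a link protein of the cartilage matrix, had 5.89 and 8.04 RPM in control and 0.261 and 1.39 RPM in knockout (mm10 chromosome 13, 89540636 to 89611832). It fell by 3.52 on the log2 scale (SE 0.70, limma adjusted p = 0.000833), and by 2.31 without knockout replicate 1, which held 1 read there. The potassium channel gene Kcnh8 had 7.05 and 8.87 RPM in control, no read in knockout replicate 1 and 2.11 RPM in replicate 2 (log2 changes of -3.49 and, without the shallow library, -1.91). The deeper knockout library kept 19.9% of the control mean at Hapln1 and 26.5% at Kcnh8.

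Tomm20l, a paralog of a mitochondrial import receptor gene, had 5.98 and 7.10 RPM in control and 0.261 and 1.33 RPM in knockout. Adcyap1, which encodes the neuropeptide PACAP, had 5.31 and 6.04 RPM against 0 and 1.27 RPM. Stmn2, a microtubule regulator of neurons, had 2.99 RPM in each control library and 0.261 and 0.362 RPM in knockout. Of these, Stmn2 was as low in the deep knockout library as in the shallow one, with log2 changes of -3.28 and, without knockout replicate 1, -3.05. The olfactory receptor gene Olfr658 did likewise, from 2.70 and 3.11 RPM to 0 and 0.302 RPM (-3.44 and -3.26). Dpys, an enzyme of pyrimidine breakdown, had log2 changes of -3.41 with 4 libraries and -1.81 without the shallow one, and the orphan receptor gene Gpr85 of -3.29 and -1.996. Knockout replicate 1 had 0 or 1 read at each of these windows, so the size with 4 libraries depends on a single read or on the value given to an empty window.

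At windows with a control mean of at least 10 RPM, the largest decreases without the shallow library included genes of neuronal adhesion and a neurotransmitter receptor. Cntn4, a contactin of axons and synapses, had 14.7 and 16.5 RPM in control and 2.87 and 3.80 RPM in knockout. It fell by 2.23 on the log2 scale (SE 0.48, limma adjusted p = 0.00214), and by 2.03 without knockout replicate 1. Its family member Cntn5 had 9.27 and 12 RPM against 1.31 and 2.41 RPM (-2.57 and, without knockout replicate 1, -2.13). In both contactin genes the 2 knockout libraries, with 11 and 63 reads at Cntn4 and 5 and 40 at Cntn5, stood far under the controls. They stood closer together at Cntn4 than at Cntn5.

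Gabrb2, a subunit of the GABA-A receptor, had 10.5 and 14.1 RPM in control and 2.09 and 3.56 RPM in knockout (log2 changes of -2.16 and, without knockout replicate 1, -1.78). Slc7a14, a member of the cationic amino acid transporter family, had 12.1 and 12.5 RPM against 1.31 and 3.62 RPM (-2.50 and -1.76). The secreted phospholipase gene Pla2g10 had 9.36 and 10.9 RPM against 0.783 and 3.02 RPM (-2.72 and -1.75). Gabrb2 and Slc7a14 carried H3K27me3 in control cells and Pla2g10 did not, by the rule given below.

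A decrease at strongly marked windows was smaller and rarer. Ism2, an isthmin family gene, had 26.5 and 31.8 RPM in control and 9.66 and 18.5 RPM in knockout (log2 change -1.12, SE 0.29, limma adjusted p = 0.00834, and -0.65 without knockout replicate 1). Sgcd, which encodes the muscle protein delta-sarcoglycan, had 26.2 and 30.9 RPM against 11 and 18.4 RPM, and its change without knockout replicate 1 was -0.63. Fam184b had 27.9 and 26.8 RPM against 12 and 15.6 RPM. Here the 2 knockout libraries differed less from each other at Fam184b than at Ism2, and Fam184b kept most of its change without replicate 1 (-0.998 and -0.81). The imprinted zinc finger gene Plagl1 (-0.85 and -0.64) and the potassium channel gene Kcna3 (-1.01 and -0.65) completed the strongest windows lower in both fits, beside Bok of the BCL2 family. None of these 6 was H3K27me3-marked in control cells, and their controls lay between 25 and 31.8 RPM.

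**Figure D2:**
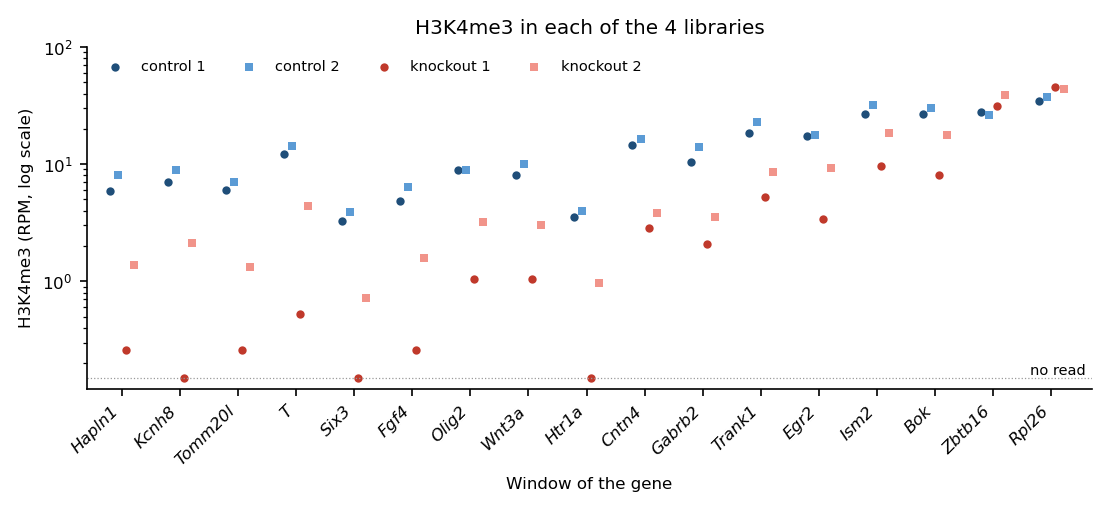
H3K4me3 in each of the 4 libraries (RPM, log axis) at 17 gene windows, with controls in blue and knockouts in red, circles for replicate 1 and squares for replicate 2. A point on the dotted line has no read; at 15 of the windows both knockout values lie below both control values, while at Zbtb16 and Rpl26 they lie above them with no call in the fit of 4.

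The change went with how much H3K4me3 a window carried, counted as the mean of all 4 libraries and so including the knockout values. A window that loses the mark moves to a lower band of this mean, which builds part of the order in. Bands of the control mean are given below, where the order differed at windows with H3K27me3. Among windows of 1 to 4 RPM, 19.7% were called lower, at 4 to 8 RPM 27.1%, at 8 to 12 RPM 21.6%, at 12 to 16 RPM 10.8% and at 16 to 20 RPM 4.0%. At 20 to 24 RPM the share was 0.9%, and over 24 RPM 3 of 3002 windows were lower. The median log2 change went with it, from -1.35 at 1 to 4 RPM through -0.81 at 8 to 12 RPM to 0.07 over 24 RPM. Without knockout replicate 1 these medians were -1.02, -0.49 and 0.23. A lower level also means fewer reads, with a median of 48 reads per window in knockout replicate 1 over all kept windows and 9 at the windows lower in both fits.

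H3K27me3 in control cells separated windows within each level. A window was taken as H3K27me3-marked where its H3K27me3 was at least 2-fold over the same-numbered input in both control libraries, on a log2(RPM + 0.5) scale, a rule that uses no H3K4me3 library. Of 2205 marked windows, 905 (41.0%) were called lower with 4 libraries and 430 (19.5%) in both fits. Of 13419 windows that were not marked, 641 (4.8%) and 205 (1.5%) were. Median H3K4me3 at marked windows was 8.49 and 10.9 RPM in control and 2.87 and 4.89 RPM in knockout, against 18.2 and 20.6 RPM and 14.4 and 19.7 RPM at the others. Marked windows were thus also the weaker ones, and the comparison was repeated within bands of mean H3K4me3.

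At 8 to 12 RPM 278 of 562 marked windows (49.5%) and 134 of 1346 unmarked ones were called lower, with median log2 changes of -1.22 and -0.59. At 12 to 16 RPM the shares were 40.8% and 6.6% and the medians -0.94 and -0.39. At 16 to 20 RPM they were 35.0% and 3.1%, with medians of -0.79 and -0.19. In each of these bands, and at 1 to 4 RPM (29.8% and 13.8%) and 4 to 8 RPM (44.3% and 14.4%), the share was higher among marked windows. Without knockout replicate 1 the medians of marked and unmarked windows still differed, with -0.82 and -0.33 at 8 to 12 RPM and -0.42 and 0.04 at 16 to 20 RPM. Over a 4-library mean of 20 RPM there were only 6 marked windows, with 1 called. These bands use the knockout values too, and within them marked windows had more H3K4me3 in control cells than unmarked ones (medians of 11.9 and 14.8 RPM against 10.9 and 13.0 RPM at 8 to 12 RPM). Bands of the control mean alone were therefore added after seeing the data. In them 22.1% of marked windows were called lower at 1 to 4 RPM and 37.4% at 4 to 8 RPM. At 20 to 24 RPM 39 of 83 marked windows (47.0%) were called, and over 24 RPM 12 of 18 (66.7%). The share of marked windows thus did not fall with the control level, while that of unmarked ones went from 15.5% at 4 to 8 RPM to 1.6% over 24 RPM. At a control mean of 8 to 12 RPM, 227 of 540 marked (42.0%) and 103 of 1161 unmarked windows (8.9%) were called lower, and at 16 to 20 RPM 131 of 256 (51.2%) and 102 of 2784 (3.7%). The counts without knockout replicate 1 were 137 and 55 in the first of these bands and 61 and 35 in the second. Without control replicate 1 or without control replicate 2, 0 marked windows were called lower by limma (475 and 147 at an unadjusted p under 0.05), and without knockout replicate 1 558 were.

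The scaling changed the level pattern of unmarked windows but not the sign at marked ones. Under quantile normalization, which gives each library the same distribution of values, the median of unmarked windows was 0.26 at 1 to 4 RPM, 0.15 at 8 to 12 RPM and 0.05 at 16 to 20 RPM. Marked windows then had medians of -0.24, -0.46 and -0.52 in those bands. Median centring gave -1.34, -0.93 and -0.50 for marked and -0.82, -0.30 and 0.10 for unmarked windows.

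**Figure D3:**
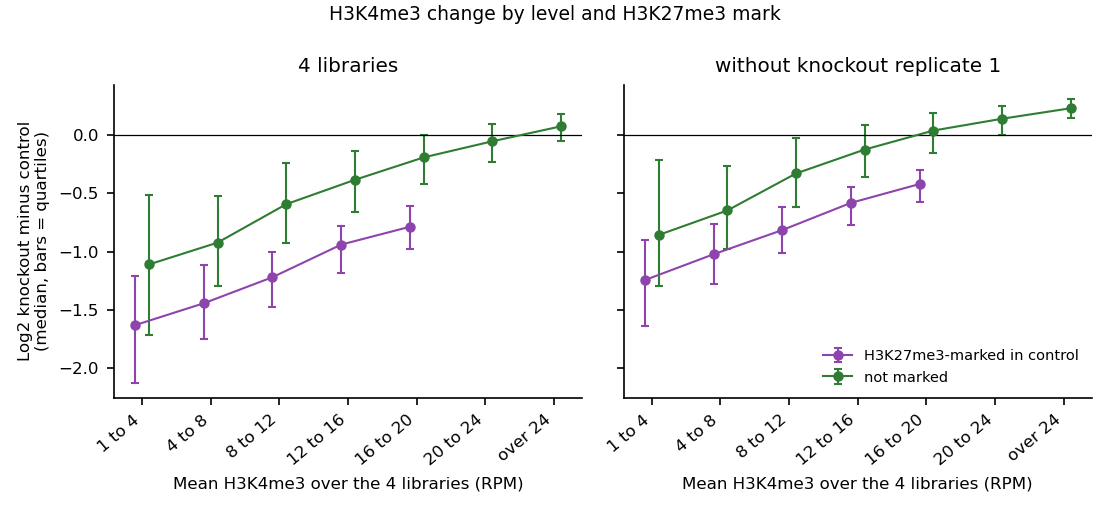
Median log2 change of H3K4me3 (knockout minus control, bars from the lower to the upper quartile of windows) by mean H3K4me3 over the 4 libraries, with all libraries (left) and without knockout replicate 1 (right); points for under 20 windows are left out. H3K27me3-marked windows (purple) lie below unmarked ones (green) in each band they share, from -1.63 and -1.11 at 1 to 4 RPM to -0.79 and -0.19 at 16 to 20 RPM with 4 libraries.

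The share called lower also went up with the amount of H3K27me3. Among windows of 8 to 16 RPM, grouped by their mean log2 ratio of H3K27me3 to input in control cells, 46 of 2033 (2.3%) were called at a ratio under 0 and 125 of 967 (12.9%) at 0 to 1. At a ratio of 1 to 2 it was 244 of 687 (35.5%), at 2 to 3 220 of 378 (58.2%) and at 3 or more 11 of 15 (73.3%). The shares lower in both fits ran in the same order, 0.6%, 3.0%, 13.5%, 27% and 46.7%.

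Genes with little RNA lost H3K4me3 more often. RNA values are RPM not divided by gene length, so they order genes only broadly. Among windows of 8 to 16 RPM of H3K4me3, 34.9% were called lower where control RNA was under 0.1 RPM, 34.2% at 0.1 to 1 RPM, 15.4% at 1 to 10 RPM and 4.0% at 10 to 100 RPM. At 100 RPM and over 1 of 169 was called. Without H3K27me3 the corresponding counts were 28 of 140, 79 of 415, 122 of 1199 and 26 of 1256, so the order by RNA was present among unmarked windows. Among H3K27me3-marked windows of the same band there was no such steady order. There the counts were 70 of 141 (49.6%), 179 of 340 (52.6%), 104 of 266 (39.1%) and 26 of 58 (44.8%). Without knockout replicate 1, 67 of 281, 126 of 755, 84 of 1465 and 16 of 1314 windows were called lower, in the order of RNA from under 0.1 to 100 RPM.

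**Figure D4:**
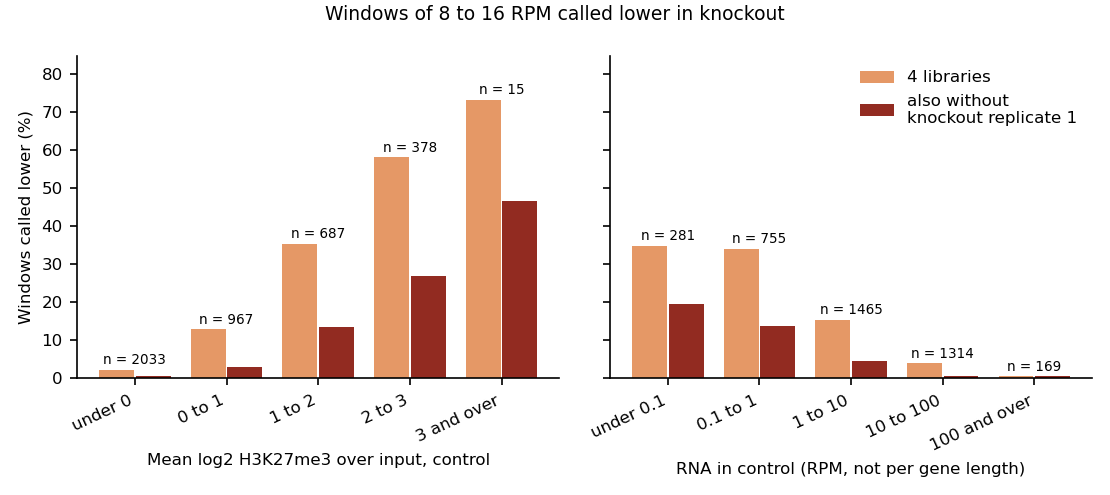
Share of windows of 8 to 16 RPM called lower with 4 libraries (orange) and again without knockout replicate 1 (dark red), by the mean log2 ratio of H3K27me3 to input in control cells (left) and by control RNA (right), with the number of windows above each group. The share goes from 2.3% to 73.3% with the H3K27me3 ratio and from 34.9% to 0.6% with RNA.

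Transcription factors of early lineages were among the genes that lost the mark, and the gene lists used here were drawn up by function. Of 37 factors of primitive streak, mesoderm and endoderm with a kept window, 9 were called lower with 4 libraries (24.3%, against 9.90% of all windows) and 8 in both fits (21.6%, against 4.06%). The 8 were T (Brachyury), Sox7, Tal1, Mixl1, Cdx1, Foxa1, Gata5 and Lhx1. The blood and endothelial factor gene Tal1 had 7.24 and 9.54 RPM in control and 1.57 and 2.77 RPM in knockout (log2 changes of -1.99 and, without knockout replicate 1, -1.58). Gata5, a cardiac and endodermal factor gene, had 13.1 and 16.7 RPM against 4.70 and 6.45 RPM. T, the mesoderm factor gene, had 12.3 and 14.4 RPM against 0.522 and 4.40 RPM, the widest gap between the knockout libraries of these 3. The list's median log2 change was -1.02, or -0.67 without knockout replicate 1 and -0.31 under quantile normalization. Within it, 8 of 25 marked members were called (32%, against 41.0% of all marked windows) and 1 of 12 unmarked ones.

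Of 60 neural and sensory factors, 18 were called lower (30.0%, against 9.90% of all windows) and 9 in both fits (15.0%, against 4.06%). Of the 39 that were H3K27me3-marked 16 were called (41.0%, the share of all marked windows). The 9 were Six3, Dbx1, Olig2, Neurog1, Neurog2, Nkx2-2, Pax3, Atoh1 and Neurod1. Dbx1, a factor of spinal interneurons, had 4.25 and 5.49 RPM in control and 0.522 and 1.03 RPM in knockout. Olig2, which specifies oligodendrocytes and motor neurons, had 8.98 and 8.87 RPM against 1.04 and 3.20 RPM. Pax3, a neural crest and muscle factor gene, had 12.4 and 14.9 RPM against 3.13 and 5.55 RPM. Most of the 9 are basic helix-loop-helix or homeodomain genes that act in neuronal progenitors. The list's median was -1.08, or -0.72 without knockout replicate 1 and -0.32 under quantile normalization. Zic2, the most strongly marked member without a call, had 21.7 and 25.3 RPM in control and 17.2 and 22.3 RPM in knockout.

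Hox genes, which pattern the body axis, were called about as often as windows in general at an adjusted p under 0.05, though not at an unadjusted one. Of 36 with a kept window, Hoxd13, Hoxc8 and Hoxb9 were called lower (8.3%, against 9.90% of all windows), and Hoxd13 alone in both fits (2.8%, against 4.06%), from 11.2 and 18.8 RPM to 3.39 and 5.49 RPM (-1.75 and -1.40). Of the 21 Hox windows that were H3K27me3-marked 2 were called (9.5%, against 41.0% of all marked windows). The median of the list was -0.94, or -0.50 without knockout replicate 1, and turned to 0.05 under quantile normalization.

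Signalling genes were described as ligands, their secreted antagonists and receptors, and differences between these lists were not tested. Of 68 developmental ligands 13 were lower (19.1%) and 4 in both fits (5.9%, against 4.06% of all windows), Fgf4, Wnt3a, Ihh and Wnt2b. The hedgehog ligand gene Ihh had 9.17 and 10.6 RPM in control and 2.87 and 3.20 RPM in knockout, and its 2 knockout libraries stood close together (-1.71 and, without knockout replicate 1, -1.63). Of 19 secreted antagonists 5 were lower (26.3%) and 3 in both fits. They were the Wnt antagonist genes Dkk2 (12.1 and 15.2 RPM against 1.83 and 4.89 RPM) and Sfrp5 (10.8 and 12.1 RPM against 2.61 and 4.34 RPM) and the BMP antagonist gene Nog (22.9 and 21.5 RPM against 7.05 and 13.4 RPM). Of 44 receptors 4 were lower (9.1%, near the 9.90% of all windows), Fgfr4, Acvr1c, Ror2 and Kit, and 0 in both fits by limma (15 of the 44 at an unadjusted p under 0.05 with 4 libraries, and 5 by voom). The median log2 changes were -0.99, -0.86 and -0.54 for the lists in that order, or -0.64, -0.53 and -0.18 without knockout replicate 1. The lists differed in H3K27me3 too, with 38 of 68, 7 of 19 and 7 of 44 windows marked, and in level, with a median H3K4me3 of 10.4, 12.2 and 18.8 RPM. Of these marked windows 10, 4 and 2 were called lower, against 41.0% of all marked windows. Of 60 axon guidance genes 13 were called lower (21.7%), but only the ephrin receptor gene Epha6 in both fits (23.1 and 24 RPM against 5.22 and 12.4 RPM).

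Genes of neuronal excitability had the highest shares called with 4 libraries among the lists with at least 10 kept windows. Of 67 neurotransmitter receptor genes 30 were called lower (44.8%, against 9.90% of all windows) and 14 in both fits (20.9%, against 4.06%). Their median log2 change was -1.22, or -0.88 without knockout replicate 1 and -0.49 under quantile normalization, and at 66 of them both knockout values lay below both control values, as they did at 42.8% of all windows. The count called was 9 under quantile normalization and 12 over input. The serotonin receptor gene Htr1a had 3.57 and 3.99 RPM in control, no read in knockout replicate 1 and 0.965 RPM in replicate 2. The glycine receptor gene Glra1 had 5.31 and 7.49 RPM against 0.522 and 1.57 RPM. Others lower in both fits encode GABA-A subunits (Gabrb1, Gabrb2, Gabra4, Gabra5, Gabrg1) and ionotropic glutamate subunits (Gria2, Grin1).

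Of 66 potassium channel genes 26 were called lower (39.4%, against 9.90% of all windows) and 11 in both fits (16.7%, against 4.06%). Their median log2 change was -1.11, or -0.79 without knockout replicate 1 and -0.39 under quantile normalization. The count called was 9 under quantile normalization and 4 over input. Beside Kcnh8 and Kcna3 these included Kcna4, a voltage-gated subunit gene that went from 13.5 and 15.0 RPM to 2.87 and 5.73 RPM. The tandem-pore channel gene Kcnk9 had 6.18 and 7.10 RPM against 1.04 and 2.41 RPM, and Kcns3, a silent modulatory subunit gene, 9.85 and 12.1 RPM against 1.83 and 4.64 RPM. Kcna4 was lower without being H3K27me3-marked, while Kcnk9, Kcns3 and Kcnh8 were marked. Of these windows, 20 of 40 marked channel windows and 6 of 26 unmarked ones were called, and for neurotransmitter receptors 21 of 40 and 9 of 27. Over all windows 41.0% of marked and 4.8% of unmarked ones were called.

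Lists of the germline itself differed among each other. Of 33 genes of undifferentiated spermatogonia 3 were lower with 4 libraries (9.1%, near the 9.90% of all windows) and in both fits (against 4.06%), T, Egr2 and Lhx1. Of 16 genes of differentiating spermatogonia Kit was called, of 38 of meiotic prophase 2, of 30 of the piRNA pathway and germline silencing Tdrd6, and none of these was called again without knockout replicate 1 (4, 9 and 2 of the lists at an unadjusted p under 0.05 with 4 libraries, and 2, 4 and 1 by voom). Of 17 spermatid and sperm genes 3 were called (17.6%, against 9.90% of all windows), Adam2, Adam3 and Spata18. None of them was called in both fits (8 in limma at an unadjusted p under 0.05 with 4 libraries, and 6 by voom). Dazl, a translational regulator needed in germ cells, had 27.8 and 29.0 RPM in control and 29.0 RPM in each knockout library. Zbtb16, which maintains spermatogonial stem cells, had 27.9 and 26.2 RPM against 31.6 and 39.1 RPM and was called higher without knockout replicate 1 (limma adjusted p = 0.028) but not with it (adjusted p = 0.231). Among 21 pluripotency genes 3 were lower (14.3%, against 9.90% of all windows), Fgf4, Tdgf1 and Dppa5a, the first 2 in both fits (9.5%, against 4.06%). Tdgf1, a Nodal co-receptor gene, had 8.11 and 11.6 RPM in control and 3.13 and 3.02 RPM in knockout.

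Several lists had no call with 4 libraries, several of them of strongly marked windows, where few were called in any case (23 of 2614 at 20 to 24 RPM and 3 of 3002 over 24 RPM). Among 78 cytosolic ribosomal protein genes limma called 0 lower or higher (0 lower and 2 higher at an unadjusted p under 0.05, and the same by voom), with a median level of 24.6 RPM and a median log2 change of 0.16, or -0.02 when scaled to their own median. Rpl26 had 34.7 and 37.4 RPM in control and 45.4 and 43.9 RPM in knockout. For 48 cell cycle genes the count was 0 (3 lower at an unadjusted p under 0.05, 0 by voom), and for 16 glycolysis genes 0 (2 and 0). Among 18 genes of H3K4 methyltransferase complexes it was 0 (0 and 0), with a median of 0.08 that turned to -0.10 under ribosomal scaling. Among 31 Polycomb genes it was 0 (3 and 1), among 24 interferon response genes 0 (2 and 1), and among 7 H3K4 and H3K27 demethylase genes 0 (0 and 0). The counts were again 0 without knockout replicate 1, except for 1 interferon response gene, and without knockout replicate 2 they were 2 ribosomal, 11 cell cycle, 4 glycolysis, 3 methyltransferase, 11 Polycomb, 10 interferon and 1 demethylase gene. These counts with a library left out are of lower calls only. Higher calls depended on the scaling. Under median centring 13 ribosomal and 4 methyltransferase windows were higher and 0 of either lower, against 642 higher of all 15624 windows. Under quantile normalization 8 of the 24 interferon windows were higher and 0 lower, against 414 higher of all windows. The interferon median went from -0.22 to 0.34 with it. Of 23 p53 target genes Perp was called with 4 libraries. Wdr5, the shared subunit of the methyltransferase complexes, had 26.8 and 27.9 RPM in control and 26.9 and 31.5 RPM in knockout. Of 15 steroid response genes 4 were lower (26.7%, against 9.90% of all windows) and 2 in both fits (13.3%, against 4.06%). These 2 were the progesterone receptor gene Pgr (9.65 and 14.1 RPM against 1.57 and 3.86 RPM) and the retinoic acid hydroxylase gene Cyp26a1 (13.1 and 16.5 RPM against 4.96 and 7.36 RPM).

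**Figure D5:**
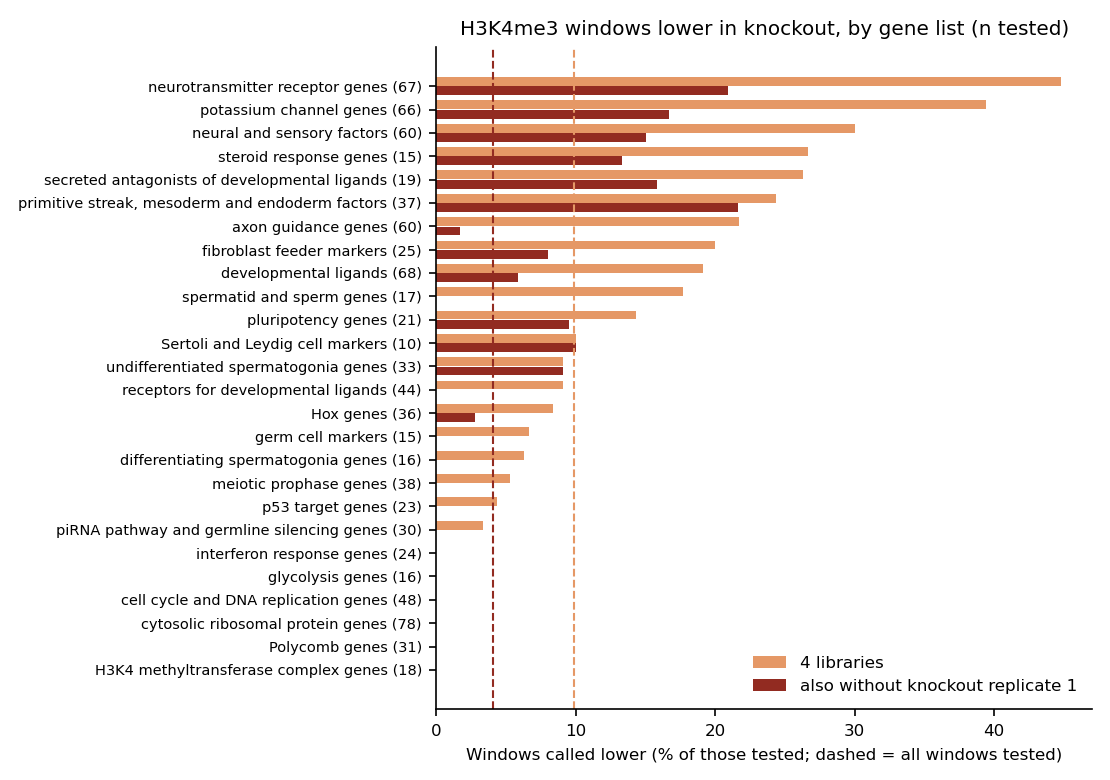
Share of the kept windows of each gene list called lower with 4 libraries (orange) and again without knockout replicate 1 (dark red), for lists with at least 10 kept windows, whose number is in brackets; dashed lines give the shares over all windows (9.90% and 4.06%). Neurotransmitter receptor genes stand at 44.8% and 20.9%, and 6 lists at the foot at 0.

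Markers of the cell types a culture could hold were compared between the groups. The 10 germ cell markers summed to 1951 and 1895 RPM of RNA in control and 1910 and 2191 RPM in knockout, with 10 of 10 above 1 RPM in control replicate 1. The 10 fibroblast feeder markers summed to 448 and 481 RPM against 487 and 620 RPM, the 9 Sertoli and Leydig markers to 20.8 and 19.9 RPM against 20.9 and 26.1 RPM, and the 6 blood and macrophage markers to 3.33 and 3.45 RPM against 4.96 and 3.92 RPM. Of the last 2 sets, 3 of 9 and 1 of 6 markers were above 1 RPM in control replicate 1, and 10 of 10 feeder markers were. H3K4me3 at the 10 feeder markers summed to 70.2 and 78.3 RPM in control and 43.6 and 64.9 RPM in knockout. Of the kept windows of longer lists, 1 of 10 was called for Sertoli and Leydig cells (Cldn11), 1 of 2 for blood (Fcgr3) and 1 of 15 for germ cells (Dppa5a), the first 2 in both fits. Of 25 kept feeder windows 5 were lower with 4 libraries (20%, against 9.90% of all windows) and 2 in both fits (8%, against 4.06%). Of these 2, Vim, an intermediate filament gene, had 21.3 and 23.3 RPM against 8.36 and 11.9 RPM. The list's median of -0.79 became -0.30 without knockout replicate 1 and 0.17 under quantile normalization. The part of feeder cells in these values was not tested, and fewer cells of a type and less mark per cell cannot be told apart.

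Other readouts at the same windows were not used to choose the 635 lower in both fits. In RNA, 0.339% of 14167 genes tested were lower and 3.10% higher in the knockout by limma. Of the 196 genes with a window lower in both fits and enough RNA to be tested, 4 were lower and 12 higher, with a median log2 change of 0.17 against 0.06 over the 12174 tested genes of all kept windows. The 2 sets differed in RNA level, with a median control RNA of 0.35 RPM at the 635 windows and 13.5 RPM at all kept ones. Over all kept windows with a control RNA of 1 to 10 RPM, 17 of 3698 tested genes were lower and 253 higher, with a median of 0.23. The 12 higher genes and the median of 0.17 are near those of that RNA level. RNA counts moved with the library left out, to 1449 lower and 5296 higher genes without knockout replicate 1 and to 3101 and 2984 without knockout replicate 2.

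Trank1 was the gene with the largest RNA decrease among them. Its H3K4me3 had 18.5 and 23.1 RPM in control and 5.22 and 8.63 RPM in knockout, and its RNA 8.53 and 8.90 RPM against 1.68 and 3.20 RPM. RNA fell by 1.91 on the log2 scale (SE 0.28, limma adjusted p = 0.0245) and was called without each library in turn. Wfdc15a (-1.35) was as well, though not under median centring (adjusted p = 0.0598 in limma), while Fabp5 (-0.95), a fatty acid binding protein gene, and Coro2b (-0.63) were not called without control replicate 1 (limma adjusted p = 0.232 and 0.137), nor Coro2b without control replicate 2 (adjusted p = 0.385). In these 4 genes RNA and H3K4me3 were both lower.

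RNA was higher where H3K4me3 was lower at 12 genes. The largest increase was at BC068157, whose RNA went from 0.338 and 0.383 RPM to 2.29 and 1.97 RPM (log2 change 2.56, limma adjusted p = 0.0181), while its H3K4me3 went from 11.8 and 13 RPM to 3.13 and 5.19 RPM. Gata3, a zinc finger factor gene of lymphoid and epithelial lineages, had RNA of 1.56 and 1.89 RPM in control and 4.19 and 5.35 RPM in knockout, with H3K4me3 of 8.69 and 11.6 RPM against 2.09 and 3.98 RPM. Adora1, an adenosine receptor gene, rose by 1.29 in RNA and Egr2, an immediate early factor gene, by 1.1. These 4 were called without each library in turn, and 4930403N07Rik (1.44) was not called without control replicate 1 (limma adjusted p = 0.110) or under median centring (adjusted p = 0.0558).

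At 33 windows lower in both fits, with at least 20 reads in each control library, the gene had a control RNA of at least 10 RPM. None of the 33 genes was called in RNA, with log2 changes between -0.42 and 0.44 and a median of -0.03. Such calls were rare at these RNA levels over all kept windows. At 10 to 100 RPM 17 of 6790 genes were lower and 107 higher, and at 100 RPM and over 3 and 3 of 1502. No call among 33 is near those shares. Gabrb1 had H3K4me3 of 6.66 and 10.4 RPM in control and 2.35 and 2.96 RPM in knockout, and Fyb, an adaptor of T cell signalling, 10.7 and 12.8 RPM against 1.83 and 4.77 RPM. Mean RNA was 119 RPM in control and 116 RPM in knockout at Gabrb1, and 198 and 191 RPM at Fyb. Cntn5 stood at 12.4 and 17.0 RPM of RNA. Whether the deposited window covers the start site in use was not tested. Gabrb1 and Fyb were picked after their values were seen.

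H3K27me3 was called higher at 0.791% of 4807 windows tested in that mark, and at 6 of the 578 tested among those lower in both fits (Kcna3, Gabrb1, Ccdc110, Socs2, Slc6a15 and Rln1). The median log2 change of H3K27me3 was 0.48 at these 578 and 0.53 over the 4126 tested of all kept windows. Median centring moved the median over the 4807 windows tested to -0.13 and gave 81 higher and 202 lower windows, against 38 and 0 by limma (6 lower at an unadjusted p under 0.05), so the direction of H3K27me3 turned with the scaling. By the rule given above 430 of the 635 windows were marked in control and 531 in knockout, and over all kept windows 2205 and 3100. Socs2, a suppressor of cytokine signalling, had H3K27me3 of 0.342 and 0.0916 RPM in control and 2.90 and 1.61 RPM in knockout, with H3K4me3 of 20.7 and 23.7 RPM against 7.31 and 12.7 RPM. Kcna3 had H3K27me3 of 1.03 and 0.275 RPM against 2.70 and 3.32 RPM. The H3K27me3 calls at Socs2, Ccdc110 and Kcna3 were lost without control replicate 2 and without either knockout library, and over all windows 152, 1, 0 and 0 were higher without control replicate 1, control replicate 2, knockout replicate 1 and knockout replicate 2.

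The input, sequenced from chromatin without an antibody, gave 0 calls over the same 15624 windows by limma (741 at an unadjusted p under 0.05). Its median log2 change was -0.05 at the windows lower in both fits. Start sites within 1 kb of another gene's start made up 9.76% of the windows lower in both fits and 22.4% of all kept windows. This share went with level, from 11.7% at 4 to 8 RPM to 44.7% over 24 RPM, and was 9.9% at H3K27me3-marked windows. The windows lower in both fits had a median level of 7.14 RPM, so their share is near that of windows of like level.

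Of the 8 windows called higher, 5 rose mainly in the shallow knockout library. Gm10800 had 61.0 and 64.5 RPM in control and 189 and 76.2 RPM in knockout. Gm10801 (44.9 and 39.9 RPM against 137 and 48.4 RPM), Gm10717, AC242409.1 and Sfi1 had the same pattern. At Gm10800, Gm10801, Gm10717 and AC242409.1 the mean input of the control libraries was above the mean H3K4me3, as with 113 and 96.5 RPM of input at Gm10800. Without knockout replicate 1 Gm10801, Gm10717 and AC242409.1 were not called, Gm10800 remained higher (log2 change 0.28) and Sfi1 was called lower (-0.23). Yipf3 (31.9 and 37.8 RPM against 51.4 and 48.0 RPM) and Polr1c share a divergent promoter on chromosome 17 and were higher in both fits. Cpeb4, the last of the 8, had 0.290 and 1.33 RPM against 3.92 and 1.99 RPM and was not called without knockout replicate 1 (limma adjusted p = 0.0594). Polr1c and Sfi1 fall outside the rule for named genes and are given to complete the 8. Of the 72 windows higher without that library, 61 had a mean above 24 RPM and their median log2 change was 0.47.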

How the data were processed

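Chromatin was profiled by ChIP-seq with an antibody to H3K4me3 in 2 control and 2 knockout libraries, and H3K27me3, input DNA and RNA in 2 and 2 each. The deposited tables hold log2 RPM per gene window and log2 RPM per gene, calculated by the authors and not divided by input or length. The submitters' processing notes name mm10, Trim Galore 0.4.0, TopHat2 2.0.14, CASAVA 1.8 and Bowtie 1.1.1, without their roles. On the linear scale the deposited log2 values were whole multiples of 1 step per library (100.0% within 0.1 of a read), from which reads per window and mapped reads were recovered.

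Readouts were fitted one by one in limma 3.58.1 (R 4.3.3), using its trended variance on the deposited log2 values, without a replicate block. All windows or genes with a mean of at least 1 RPM entered a two-sided test, p-values were adjusted by Benjamini-Hochberg over all of them, and calls were made under 0.05. The scripts were tested on simulated data. Labels do not say that replicate numbers mark shared lines. Named genes were Kmt2b, the largest decreases lower in both fits (10 in the fit of 4, 8 without knockout replicate 1 at a control mean of at least 10 RPM, 6 by control level), the 6 largest increases, up to 3 members of each of 28 gene lists that were lower in both fits, with the uncalled member of highest level, and the 6 largest RNA decreases, 4 largest RNA increases and 4 largest H3K27me3 increases among windows lower in both fits. Lower in both fits here also required at least 20 reads in each control library and no overlap between groups. Other genes are named to complete a count. Of 1027 listed names 1025 were found. Members and lists were chosen with earlier results of these data known. Alternatives were other scalings, filters, a pseudocount of 0.5 RPM, division by input, voom, array weights, a replicate block and leaving out each library. Some genes that the rule names are not reported here.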

Additional observations from a re-analysis of the deposited data

Results flagged for a closer look

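H3K9me3, a mark of constitutive heterochromatin that was measured in 2 control libraries only and enters no comparison above, was at least 2-fold over its input in both of them at 10 of the kept windows. These were the windows of Lhcgr, 3110070M22Rik, C130026I21Rik, Gm12735, Sfi1, AC122012.1, Vmn2r29, AC121792.3, AB512673.1 and Gm11884. In H3K4me3 Sfi1 was called higher with 4 libraries, and Gm12735 and Sfi1, neighbours on chromosome 11, were called lower without knockout replicate 1.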

How the results depend on the processing

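Depth limited knockout replicate 1 most, where a window at 1 RPM holds about 4 reads. With 1 choice changed at a time, the windows lower, higher, lower among H3K27me3-marked and lower among unmarked ones were 638, 5, 408 and 230 with array weights, which came out equal within each group (2.34 in control and 0.427 in knockout). They were 2587, 112, 1399 and 1188 with voom on recovered reads, 386, 0, 256 and 130 over input, 595, 414, 215 and 380 under quantile normalization, and 4967, 2, 1770 and 3197 under ribosomal scaling. A minimum of 4 RPM gave 852, 519 and 333 lower, no filter 1010 lower, 55 higher and 397 unmarked, and median centring 642 higher. Median centring without knockout replicate 1, added after seeing the data, gave 2964, 1047, 1460 and 1504. Leaving out 1 library gave 0 to 6889, 2 to 128, 0 to 1949 and 0 to 4940. With an H3K27me3 ratio of at least 4-fold, 345 of 736 marked and 1201 of 14888 unmarked windows were lower. The cause was not tested. A minimum of 10 reads per control library and a pseudocount of 0.5 RPM kept these counts within 1.5 times.

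With the replicate number as a block, 4037 windows were lower, 70 higher, 1688 lower among marked and 2349 among unmarked ones. The block was left out of the main fit because the labels do not say that numbers mark shared lines. Deviations from the group mean in control replicate 1 and knockout replicate 1 correlated at r = 0.149 across 15624 windows. With 2 libraries per group this is a single contrast and cannot decide on pairing. The block gave 201 lower and 1322 higher RNA genes and 1206 higher and 7 lower H3K27me3 windows. Median centring gave 114 and 265 RNA genes and 81 and 202 H3K27me3 windows, and leaving out 1 library 30 to 3101 and 239 to 5296 RNA genes and 0 to 152 higher H3K27me3 windows.

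The log2 change at Kmt2b (Wbp7) turned to -0.019 under ribosomal scaling and ran from -0.068 (without knockout replicate 2) to 0.40 (without knockout replicate 1) with 1 library left out. At AC242409.1 it ran from -0.031 (without knockout replicate 1) to 1.63, and at Sfi1 from -0.23 (without knockout replicate 1) to 0.76. Sfi1 was also at -0.12 with voom, and at -0.18 with median centring without knockout replicate 1. Of 58 named genes that were called lower and recomputed, 0 changed sign under any of these settings. The rule for named decreases required no overlap between groups, so leaving out 1 library could not turn their sign. Calls were less stable than signs. Over input 38 of the recomputed genes lost their call and 31 kept their status, and under quantile normalization 36 and 33.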
